A study of Mus musculus with 6 samples.

Results

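The p53 gene of the mouse, Trp53, and 9 genes known as its targets in growth arrest and stress (Mdm2, Cdkn1a, Ccng1, Btg2, Plk2, Perp, Sesn1, Sesn2 and Trp53inp1) were followed across 6 RNA-seq libraries from E14 cells, a line of mouse embryonic stem cells. The genes were taken by symbol, and all 10 were found among 33924 gene symbols in the deposited tables. Of the 6 libraries, 3 were labelled Rif1-KO and 3 were labelled control (WT). For both groups the labels name 2i medium, which holds the cells in naive pluripotency through a pair of kinase inhibitors, on plates coated with 0.1% gelatin, and 4-hydroxytamoxifen (4-OHT) at 0.1 µM over 2 days with a further day free of it; the treatment field reads Day 0 for all 6. In the file headers, the names of the 3 Rif1-KO libraries hold TAM and those of the 3 control libraries hold 2i, so exposure to 4-OHT or a difference in medium cannot be told apart from the genotype. How Rif1 was disrupted, and whether the libraries of a group came from separate cultures, is not given in the sources used here, so the p-values reflect the spread among these libraries alone, which may be technical.

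As background, p53 is a transcription factor that is held at a low level by MDM2, a ubiquitin ligase whose own gene p53 switches on, so that the pair forms a feedback loop. Control of p53 acts mainly on the stability and modification of the protein, which a count of mRNA does not measure. When DNA is damaged or cells are stressed, p53 accumulates and switches on genes that halt the cell cycle, slow growth or lead to cell death. Embryonic stem cells carry p53 mRNA and protein but have a short G1 phase and little of the G1 arrest seen in differentiated cells. RIF1 binds chromatin and is known to set when regions replicate, to steer the repair of DNA breaks and to help silence genes.

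Total counts ran from 9185062 to 10980777 in the Rif1-KO libraries and from 8383632 to 9218036 in the control libraries. Levels are given as CPM (a gene's counts scaled to a common library total) after TMM scaling, which corrects library size for a few very abundant genes. Calls of a rise or a fall rest on an adjusted p under 0.05, with Benjamini-Hochberg adjustment over 14250 tested genes in edgeR's quasi-likelihood test, which gave each adjusted p of a gene below. The targeted gene did not check the labels. Rif1 stood at 602, 604 and 664 CPM in the Rif1-KO libraries, against 673, 657 and 700.1 CPM in the control libraries, a log2 fold change of −0.12 ± 0.05 (SE) with an adjusted p of 0.0509, and gene counts do not show whether an exon was lost. Of 7 listed pluripotency markers, Tfcp2l1 stands in the table under its older symbol Tcfcp2l1 and is not in the sums below. It rose, from 1501 ± 78.7 CPM in control to 1875 ± 64.7 CPM in Rif1-KO (SD, n = 3 each), with a log2 fold change of 0.32 ± 0.05 (adjusted p = 1.87e-05). Its level was above that of each other marker, so the sums do not stand for the whole list. The other 6 were read in both groups, with sums of 3219 to 3288 CPM in Rif1-KO and 3405 to 3444 CPM in control. Of these, Sox2 fell (469 ± 19.4 CPM in Rif1-KO and 683 ± 31.8 CPM in control, SD, n = 3 each; adjusted p = 1.78e-08), Klf4 and Nanog rose by 0.18 and 0.11 on the log2 scale (adjusted p = 0.00256 and 0.0387), and Pou5f1, Zfp42 and Esrrb did not pass; these genes were named after their values were seen.

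The gene for p53 itself fell, while most of its targets among these genes rose. Of the 10 genes, all of which passed the filter on low counts, 6 rose, 2 fell and 2 did not pass the test in the Rif1-KO libraries. Over all tested genes, 50.9% passed, 26.1% as higher and 24.8% as lower, so that a call was common in this comparison. The groups' libraries did not overlap at 9 of the 10 genes, against 57.2% of all tested genes. The median log2 fold change of the 10 genes was 0.19, against 0.00347 for all tested genes. In bulk RNA, fewer cells that express a gene and less of its RNA per cell cannot be told apart.

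**Figure D1:**
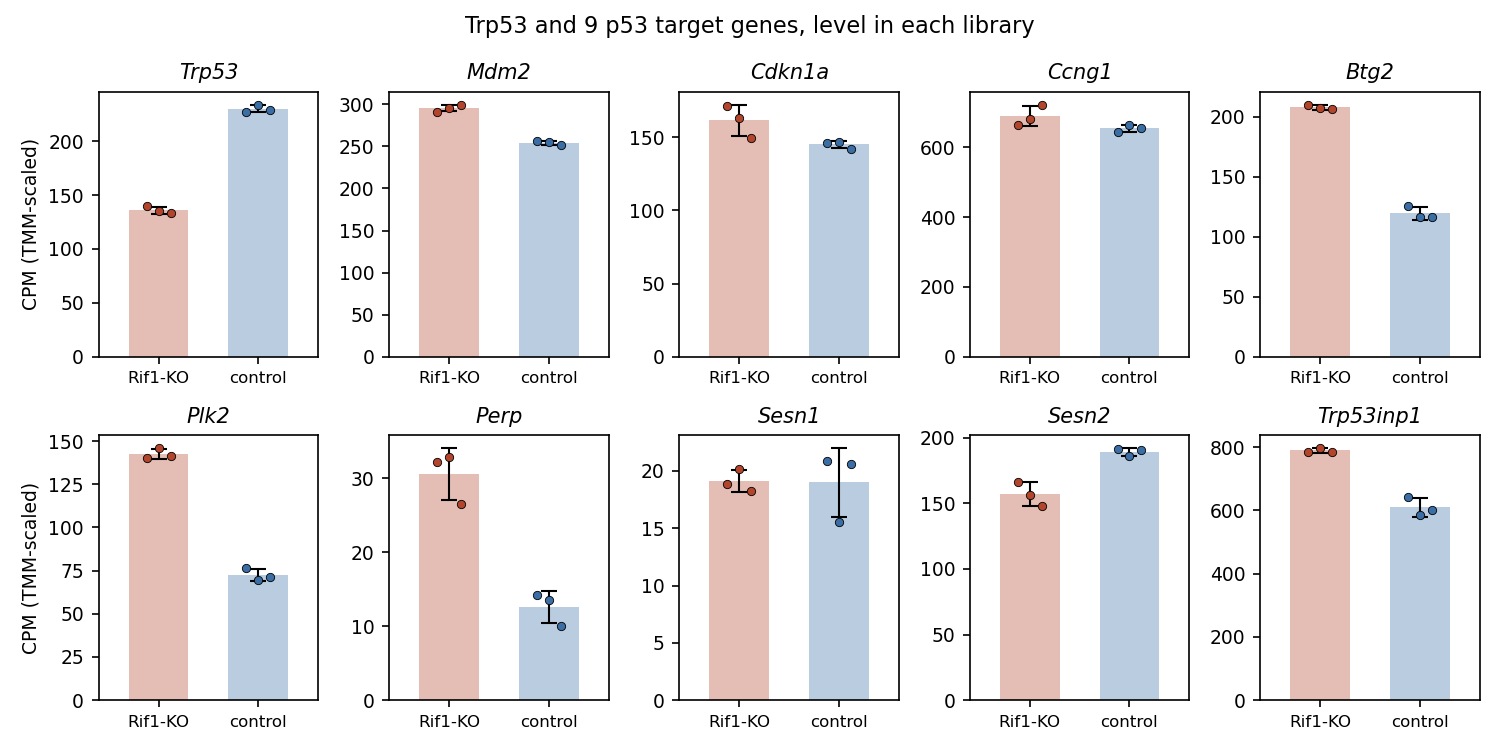
CPM of Trp53 and its 9 targets in each library, with Rif1-KO left of control in every panel; points are libraries, bars are means and error bars are SD (n = 3 each). Trp53 and Sesn2 sit lower in Rif1-KO with no overlap, Sesn1 overlaps, and the other 7 genes sit higher.

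Trp53, which encodes p53, was at 139.6, 135.5 and 133 CPM in the Rif1-KO libraries, against 227, 234 and 229 CPM in the control libraries. Every Rif1-KO library lay far below every control library, and the spread within each group was small. The means were 136 ± 3.31 CPM in Rif1-KO and 230.2 ± 3.47 CPM in control (SD, n = 3 each), which makes Trp53 1.69-fold lower, with a log2 fold change of −0.76 ± 0.04 (SE) and an adjusted p of 4.56e-11. Of all tested genes, 2.74% had a lower log2 fold change. Of the 50-base stretches of Trp53 transcripts, 3.95% are shared with transcripts of any other gene. The gene sharing the most of them is the processed pseudogene Trp53-ps, which had no count in any library.

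Mdm2, the feedback partner that marks p53 for degradation, moved the other way. It was at 291, 296 and 299 CPM in the Rif1-KO libraries, against 257, 255 and 252 CPM in the control libraries. The groups did not overlap, but the step was small. The log2 fold change was 0.22 ± 0.04 with an adjusted p of 0.00029, a 1.16-fold rise, and 54.9% of all tested genes had a larger change in either direction.

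Cdkn1a encodes p21, the inhibitor of cyclin-dependent kinases through which p53 holds cells in G1. It was at 171, 163 and 149.8 CPM in the Rif1-KO libraries, against 146, 147 and 142 CPM in the control libraries. The lowest Rif1-KO library stood just above the highest control library. The log2 fold change of 0.16 ± 0.05 passed with an adjusted p of 0.0159, and it was the weakest of the 8 calls. The call was lost when control replicate 3 was left out (log2 fold change 0.14, adjusted p = 0.0828). Leaving out Rif1-KO replicate 1 gave 0.11 (adjusted p = 0.127), and leaving out Rif1-KO replicate 2 gave 0.15 (adjusted p = 0.0557), neither of which passed. Over all 14 alternatives to the processing its adjusted p ran from 0.000983 to 0.127. In the GRCm38 annotation 7.68% of its exon bases lie under a gene of the opposite strand, and the strand setting of the counts is not given in the sources used here.

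Ccng1, which encodes cyclin G1, a protein that recruits a phosphatase to MDM2, was the most highly expressed of these genes per length and did not pass. It was at 665, 682 and 723 CPM in the Rif1-KO libraries, against 644, 664 and 657 CPM in the control libraries. Although the groups did not overlap, the lowest Rif1-KO library and the highest control library were almost level. The log2 fold change was 0.08 ± 0.05 with an adjusted p of 0.183, and its 95% interval of −0.02 to 0.17 leaves room for a rise of up to 1.13-fold or a slight fall.

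Plk2 and Btg2 had larger log2 fold changes than Cdkn1a and Ccng1. Plk2, a polo-like kinase that acts in centriole duplication and at the S phase checkpoint, was at 139.9, 146 and 142 CPM in the Rif1-KO libraries, against 76.3, 69.7 and 71.6 CPM in the control libraries. The level was close to doubled in every Rif1-KO library. Its log2 fold change was 0.97 ± 0.05 with an adjusted p of 7.64e-12, a 1.96-fold rise and the lowest adjusted p of the 10 genes. Btg2, a member of the BTG and TOB family that slows proliferation through mRNA deadenylation, was at 210.3, 208 and 206.5 CPM in the Rif1-KO libraries, against 126, 117 and 117 CPM in the control libraries. The Rif1-KO libraries were within a few CPM of each other and far above control. Its log2 fold change was 0.80 ± 0.05 with an adjusted p of 4.56e-11, a 1.74-fold rise.

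Because p53 acts by binding a response element made of a pair of 10-base half-sites, the 250 bases before the annotated starts of these genes were searched for it, and 4 windows are printed: both windows with a match, and those of the most strongly raised arrest genes. The sequences are from RefSeq on GRCm38.p6, the C57BL/6J genome, whereas the counts were made on mm9 and E14 cells come from another strain. Capitals mark a p53 response element found with at most 2 mismatches to its consensus, with the fixed C and G of each half-site kept and at most 1 base between half-sites. The consensus reads the same on both strands, so a search of 1 strand covers both.
Cdkn1a, upstream start (chr17:29090729-29090978, plus strand): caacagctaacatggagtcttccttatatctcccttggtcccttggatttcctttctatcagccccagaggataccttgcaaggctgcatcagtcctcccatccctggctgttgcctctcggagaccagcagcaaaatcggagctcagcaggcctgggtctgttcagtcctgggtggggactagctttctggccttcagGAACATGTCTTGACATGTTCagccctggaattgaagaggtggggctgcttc
Ccng1 (chr11:40755287-40755536, minus strand): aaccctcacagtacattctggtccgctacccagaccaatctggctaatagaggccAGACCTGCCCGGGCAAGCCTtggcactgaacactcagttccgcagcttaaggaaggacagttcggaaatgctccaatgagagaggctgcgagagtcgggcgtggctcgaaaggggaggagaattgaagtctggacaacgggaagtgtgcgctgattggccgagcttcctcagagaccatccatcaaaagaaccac
Btg2 (chr1:134079156-134079405, minus strand): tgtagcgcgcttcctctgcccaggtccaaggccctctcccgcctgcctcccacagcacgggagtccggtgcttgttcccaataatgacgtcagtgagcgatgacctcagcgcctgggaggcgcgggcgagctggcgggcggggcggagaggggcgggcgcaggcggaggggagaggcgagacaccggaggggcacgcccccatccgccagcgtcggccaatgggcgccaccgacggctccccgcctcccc
Plk2 (chr13:110394794-110395043, plus strand): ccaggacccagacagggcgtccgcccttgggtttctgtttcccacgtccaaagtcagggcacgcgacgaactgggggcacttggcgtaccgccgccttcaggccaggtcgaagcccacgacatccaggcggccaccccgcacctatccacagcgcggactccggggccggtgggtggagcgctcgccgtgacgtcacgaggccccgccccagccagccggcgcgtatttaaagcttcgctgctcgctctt

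The sequence table held 10 windows for 8 of the 10 genes. A response element was found in 2 of these windows, each with 1 mismatch, whereas 0.0883% of 32851 windows of the same length in the table held one with at most 1 mismatch and 0.551% held one with at most 2. In the window of the upstream Cdkn1a start it lay 51 to 32 bases before the start, and in that of Ccng1 it lay 195 to 176 bases before it. At least 1 half-site without mismatch was found in 5 of the 10 windows, against 7.13% of all windows. A response element with 1 mismatch always holds such a half-site, so the 2 windows with a match are among the 5. The others were those of Trp53 and Mdm2 and 1 of the 2 Sesn1 windows. The windows of Btg2 and Plk2 held neither a response element nor such a half-site, which most windows searched also lacked. The genes with a match had a weak call or none (log2 fold changes of 0.16 for Cdkn1a and 0.08 for Ccng1), and the other Cdkn1a window held no match. The raised Btg2 and Plk2 had no match here. Perp and Trp53inp1, which also rose (log2 fold changes of 1.29 and 0.37), had no window and were not searched. Whether a match goes with a change was not tested. A match is a description of letters, not of binding, and a window without one says nothing of sites elsewhere in the gene.

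Perp showed the largest change among the 10 genes. It encodes a membrane protein of desmosomes that is known both as a p53 target in apoptosis and as an adhesion protein of epithelia. It was at 32.3, 32.9 and 26.6 CPM in the Rif1-KO libraries, against 14.2, 13.5 and 10.1 CPM in the control libraries. The lowest Rif1-KO library was above every control library, though this was one of the more thinly read genes, with 91 counts in its lowest library. The means were 30.6 ± 3.49 CPM in Rif1-KO and 12.6 ± 2.20 CPM in control (SD, n = 3 each), a 2.44-fold rise with a log2 fold change of 1.29 ± 0.12 and an adjusted p of 1.89e-08. Of all tested genes, 3.33% had a higher log2 fold change.

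Trp53inp1 encodes a stress-induced protein that promotes p53 phosphorylation and also acts in autophagy. It was at 785, 797 and 785 CPM in the Rif1-KO libraries, against 641, 585 and 601 CPM in the control libraries. Its 3 Rif1-KO libraries were nearly equal and all above control. The log2 fold change was 0.37 ± 0.05 with an adjusted p of 1.45e-06, a 1.30-fold rise. With an offset for GC content and length, the log2 fold change was 0.21 with an adjusted p of 0.000412.

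The sestrins, which restrain the growth kinase mTORC1 through the GATOR complexes and act against oxidative stress, are encoded by 3 genes. Sesn3, not among the 10 genes and named after its values were seen, rose, with a log2 fold change of 0.44 ± 0.09 (adjusted p = 0.000452). Sesn2 fell: it was at 166.5, 156.5 and 148 CPM in the Rif1-KO libraries, against 191, 186 and 190.3 CPM in the control libraries. Every Rif1-KO library was below every control library, although the Rif1-KO libraries were more spread. Its log2 fold change was −0.27 ± 0.05 with an adjusted p of 0.000137, which is 1.20-fold lower. Sesn1 was at 18.9, 20.2 and 18.3 CPM in the Rif1-KO libraries, against 20.9, 15.6 and 20.6 CPM in the control libraries. The groups overlapped, with control replicate 2 the lowest of all 6. Its log2 fold change of 0.003 ± 0.11 had an adjusted p of 0.985, and the 95% interval of −0.22 to 0.23 means that a change of up to 1.17-fold either way is within the error.

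**Figure D2:**
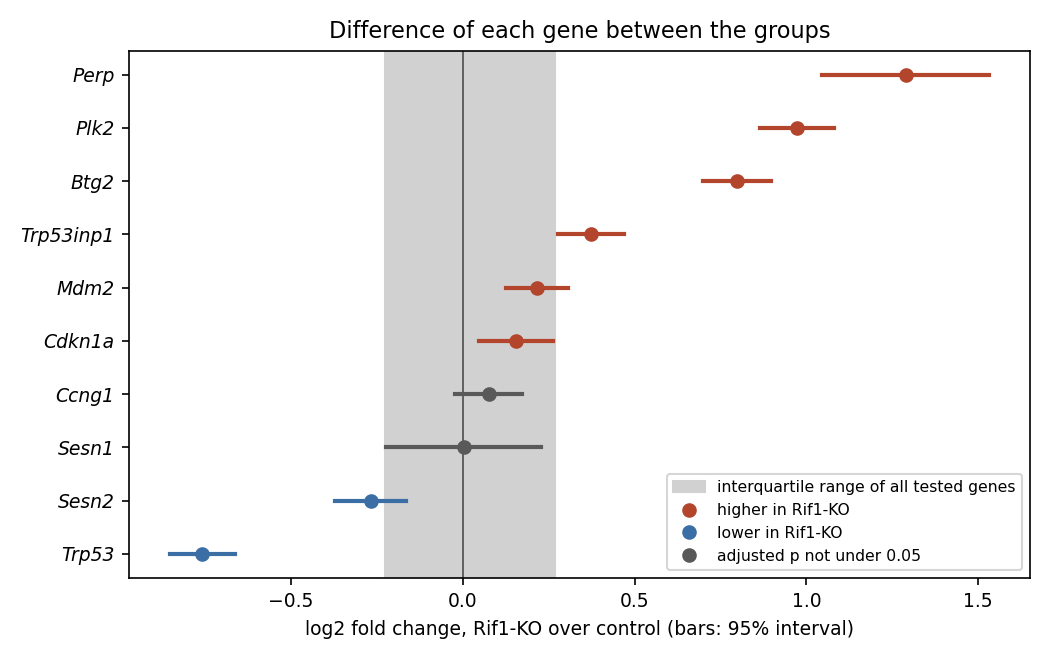
Log2 fold change (Rif1-KO over control, x axis) of the 10 genes with 95% intervals, in order of size from the top; the grey band is the interquartile range of all tested genes, from −0.227 to 0.268. The points of Perp, Plk2, Btg2 and Trp53inp1 lie above the band, those of Mdm2, Cdkn1a, Ccng1 and Sesn1 inside it, and those of Sesn2 and Trp53 below it.

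Compared per length, the order of the 10 genes changed mainly through the fall of Trp53 and the rise of Btg2. Levels per kilobase were CPM divided by the exon length of the gene in the GRCm38 annotation, which may differ from the authors' gene models. Ccng1 was highest, at 196.5 ± 8.48 CPM per kilobase in Rif1-KO and 186.5 ± 2.86 in control (SD, n = 3 each), and Trp53inp1 came next at 122 ± 1.01 in Rif1-KO and 94.1 ± 4.46 in control. Trp53 stood at rank 7, with 33.6 ± 0.813 CPM per kilobase in Rif1-KO, against rank 3, with 56.9 ± 0.854, in control. Btg2 took rank 3 with 75.9 ± 0.713 in Rif1-KO, against rank 6 with 43.6 ± 1.92 in control. In Rif1-KO the neighbours Cdkn1a at 45.4 ± 3.06 and Sesn2 at 45.2 ± 2.69 CPM per kilobase did not differ beyond their spread. In control the same held for Perp at 6.44 ± 1.12 and Sesn1 at 4.77 ± 0.751 CPM per kilobase, and the libraries of all other neighbours in either order did not overlap. Plk2, Perp and Sesn1 held ranks 8, 9 and 10 in both groups, Sesn1 lowest at 4.80 ± 0.248 in Rif1-KO and 4.77 ± 0.751 in control.

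Set against Trp53 within the same library, which removes library scaling, every target had more counts per Trp53 count in every Rif1-KO library than in any control library. The ratio of Mdm2 to Trp53 counts was 2.09, 2.19 and 2.25 in the Rif1-KO libraries, against 1.13, 1.09 and 1.10 in the control libraries. For Cdkn1a it was 1.23, 1.21 and 1.13 in Rif1-KO, against 0.643, 0.627 and 0.621 in control. These ratios were close to doubled, with quotients of the group means of 1.97 for Mdm2 and 1.88 for Cdkn1a. The quotient was lowest for Sesn2, at 1.40, and highest for Perp, at 4.11, with Plk2 at 3.32 and Btg2 at 2.94. For each of the 9 ratios the exact two-sided permutation test gave p = 0.1, before and after Benjamini-Hochberg adjustment over the 9, which is the smallest value that 3 libraries against 3 allow. Since all 9 share Trp53 as denominator, its fall alone raises each of them, and they are not separate observations.

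**Figure D3:**
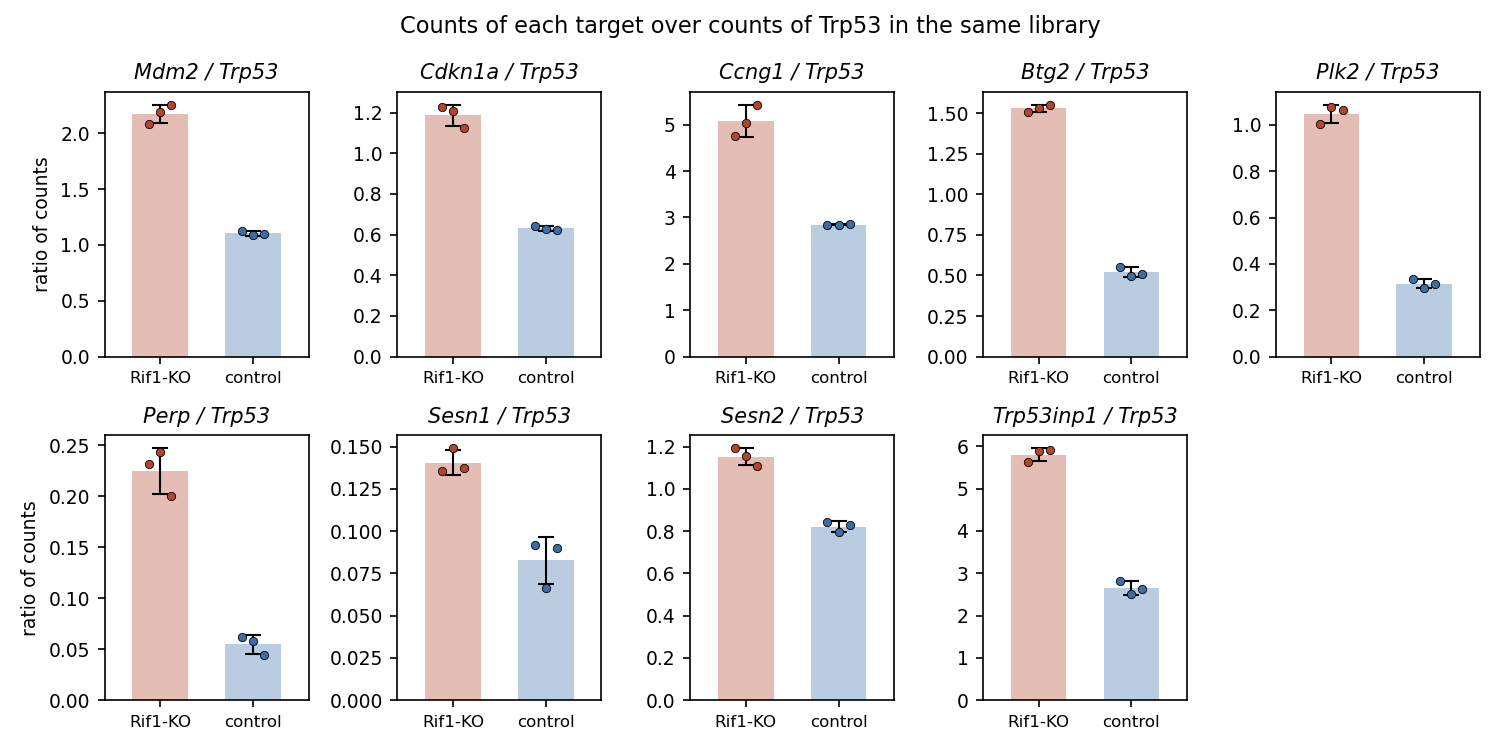
Counts of each of the 9 targets divided by the counts of Trp53 in the same library (y axis, ratio), Rif1-KO left of control; points are libraries, bars are means and error bars are SD (n = 3 each). In all 9 panels the Rif1-KO libraries lie above the control libraries, from 1.40 times for Sesn2 to 4.11 times for Perp.

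Of 22 known regulators of p53, all tested, 1 rose, 12 fell and 9 did not pass, where 26.1% of all tested genes rose and 24.8% fell. Their median log2 fold change was −0.27, against 0.00347 for all tested genes. The largest fall was that of Npm1, a nucleolar protein that binds ARF and MDM2, at 1310.0 ± 46.4 CPM in Rif1-KO and 2259 ± 170.1 CPM in control (SD, n = 3 each; log2 fold change −0.79 ± 0.05, adjusted p = 3.39e-10). The deubiquitinase gene Usp10 fell by 0.40 on the log2 scale (adjusted p = 3.27e-07), and Prmt5, a methyltransferase of p53, also fell by 0.40 (adjusted p = 1.91e-06). The gene that rose, named after its values were seen, was Cdkn2a, which encodes ARF, an inhibitor of MDM2, and the kinase inhibitor p16, with a log2 fold change of 0.28 ± 0.08 (adjusted p = 0.00384). The regulator list holds genes of replication stress signalling such as Chek1 and ribosomal protein genes such as Rpl11, so it is mixed in function. Its counts of rises and falls and its median therefore give no direction for the activity of p53, which was not tested.

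Of 43 other known p53 targets, 41 were in the table and 39 were tested; 20 of these rose, 7 fell and 12 did not pass, where 26.1% of all tested genes rose and 24.8% fell, with a median log2 fold change of 0.20. Epha2, an ephrin receptor gene, was at 178, 179 and 171 CPM in the Rif1-KO libraries, against 84.1, 82.3 and 81.4 CPM in the control libraries (log2 fold change 1.09 ± 0.05, adjusted p = 4.92e-13). Sat1, which encodes an enzyme of polyamine breakdown, rose by 0.62 on the log2 scale (adjusted p = 6.13e-09). Pmaip1, which encodes the pro-death protein NOXA, was at 44.6 ± 2.04 CPM in Rif1-KO and 24.8 ± 0.530 CPM in control (SD, n = 3 each; log2 fold change 0.84 ± 0.07, adjusted p = 1.05e-08). Of the genes of cell death on the list, named after their values were seen, Bax, the effector of mitochondrial apoptosis, fell, with a log2 fold change of −0.29 ± 0.05 (adjusted p = 2.61e-05), and Bbc3, which encodes PUMA, had 0.22 ± 0.08 (adjusted p = 0.0214). Apaf1 (log2 fold change 0.26), Fas (0.72), Tnfrsf10b (0.39), Aen (0.16) and Eda2r (0.43) also rose. Bax was not the only fall on the list. Trp53i11 had the lowest log2 fold change of the list, −0.43 (adjusted p = 3.37e-06), and Ei24 had −0.16 (adjusted p = 0.00732). Zmat3 did not pass (adjusted p = 0.852). Many genes of the list are known to have other regulators besides p53.

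Of 17 listed paralogs of the 10 genes 15 were tested, and 8 rose (26.1% of all tested genes rose), 1 fell and 6 did not pass, with a median log2 fold change of 0.23. Mdm4, Sesn3 and Plk1 stand on this list and on 1 other. Cdkn1c, which encodes p57, the imprinted relative of p21, was at 26.2 ± 1.96 CPM in Rif1-KO and 10.6 ± 1.35 CPM in control (SD, n = 3 each), a 2.49-fold rise (adjusted p = 4.78e-09). Ccng2, which encodes cyclin G2, had a log2 fold change of 0.92 ± 0.09 (adjusted p = 3.48e-08), far more than Ccng1 at 0.08, though the difference between the paralogs was not tested. Plk3, a stress-responsive polo-like kinase gene, rose by 0.77 on the log2 scale (adjusted p = 6.29e-08). The paralog that fell was Plk1, the mitotic kinase gene, at −0.28 ± 0.05 (adjusted p = 0.000163), named after its values were seen. The p53 relative Trp73 had 25.5 ± 0.206 CPM in Rif1-KO and 28.4 ± 2.11 CPM in control and did not pass (adjusted p = 0.123), and Trp63 was too low to be tested.

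Genes of G2 and mitosis, which p53 and p21 are known to lower through the DREAM complex, numbered 20 and all were tested. Of these, 2 rose, 12 fell (24.8% of all tested genes fell) and 6 did not pass, with a median log2 fold change of −0.22. Top2a, the topoisomerase of chromosome separation, was at 758.5, 745.5 and 773 CPM in the Rif1-KO libraries, against 1143, 1150.0 and 1149 CPM in the control libraries (log2 fold change −0.60 ± 0.04, adjusted p = 1.01e-09). Ube2c, which encodes a ubiquitin enzyme of mitotic exit, fell by 0.69 (adjusted p = 2.65e-09), and Foxm1, a transcription factor gene of G2, by 0.52 (adjusted p = 5.96e-08) on the log2 scale. The exceptions were Cdc20 at 0.29 ± 0.06 (adjusted p = 0.00065) and Ect2 at 0.35 ± 0.05 (adjusted p = 5.05e-06), both named after their values were seen.

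Of 12 sestrin partners in the GATOR and AMPK branch, 2 rose, 4 fell and 6 did not pass, a share of calls close to the 50.9% of all tested genes, with a median log2 fold change of −0.08. Prkaa2, a catalytic subunit gene of AMPK, rose by 0.40, and Tsc2, which encodes an inhibitor of mTORC1 signalling, fell by 0.30 on the log2 scale (adjusted p = 6.27e-06 and 1.43e-05), while Wdr24, a GATOR2 subunit gene, fell by 0.34 (adjusted p = 0.00116). Sesn2 is also known as a target of the stress factors ATF4 and NRF2. Of 8 genes of those factors, 2 rose, 5 fell and 1 did not pass, where 26.1% of all tested genes rose and 24.8% fell. Their median log2 fold change was −0.15. Atf4 itself fell by 0.30 (adjusted p = 1.48e-05) and its target Chac1 by 1.44 (adjusted p = 5.13e-08) on the log2 scale, and the NRF2 target Nqo1 rose by 1.08 (adjusted p = 2.11e-11). Among genes named after their values were seen, Ddit3, downstream of ATF4, rose by 0.28 (adjusted p = 0.000702), and of the NRF2 targets Gclm fell by 0.15 (adjusted p = 0.0291) and Hmox1 did not pass (adjusted p = 0.0876).

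Of 8 desmosome genes, 7 were tested, and 5 rose (26.1% of all tested genes rose), 1 fell and 1 did not pass, with a median log2 fold change of 0.62. Jup, which encodes plakoglobin, was at 276, 274 and 271 CPM in the Rif1-KO libraries, against 162, 169.6 and 156 CPM in the control libraries (log2 fold change 0.75 ± 0.05, adjusted p = 6.43e-11). Pkp2, a plakophilin gene, rose by 0.69 (adjusted p = 8.74e-08), and Ppl, the periplakin gene, by 0.62 (adjusted p = 1.62e-05) on the log2 scale.

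**Figure D4:**
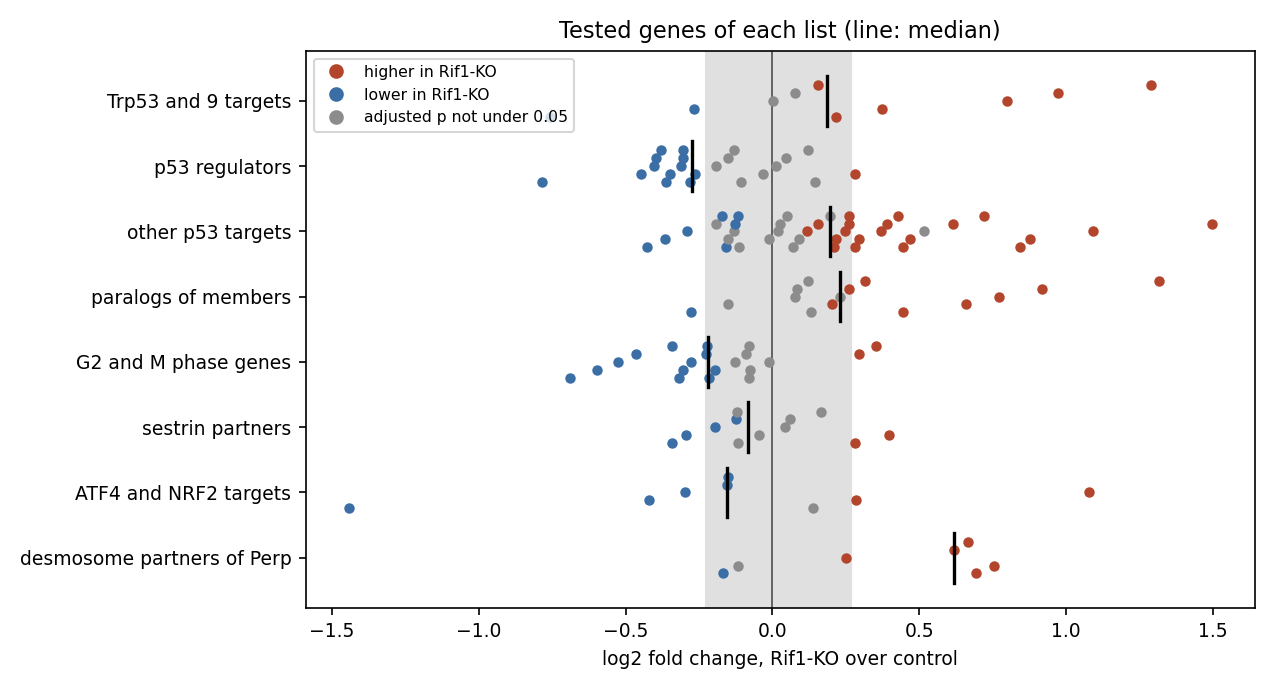
Log2 fold change (Rif1-KO over control, x axis) of every tested gene in each list, 1 point per gene coloured by its call; the black line is the list's median and the grey band the interquartile range of all tested genes. Points of the p53 regulators and of the G2 and M phase genes lie mostly to the left of 0, and those of other p53 targets, paralogs and desmosome genes mostly to the right.

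Markers of other cell types and states moved with the same groups, and their part in the results above was not tested. Over all tested genes, 26.1% rose and 24.8% fell, and the counts of calls below stand beside those shares. The summed level of 8 two-cell-like genes, which mark a rare state of stem cells with genes of the early embryo, was 35.6 to 37.5 CPM in the Rif1-KO libraries, against 0.216 to 0.486 CPM in the control libraries. All 8 were called higher, but genes this low in control pass the filter on low counts only through the Rif1-KO libraries. Of 7 trophectoderm markers, 3 were tested and 2 rose, the keratin genes Krt8 and Krt18, and the summed level was 148 to 163 CPM in Rif1-KO, against 57.0 to 58.0 CPM in control, while Cdx2, the defining factor, had 0 counts in all 6 libraries. The 5 tested of 6 primitive endoderm markers all rose, and the summed level of the 6 was 29.9 to 32.5 CPM in Rif1-KO, against 15.3 to 17.2 CPM in control. Sox17, at 0.54, 0.49 and 0.44 CPM in the control libraries, passed the filter on low counts only through the Rif1-KO libraries. Sox7, too low to be tested, had means of 0.097 CPM in Rif1-KO and 0.543 CPM in control. Of 4 neuroectoderm markers, 2 were tested and both rose, Nes and Zic1, with sums of 99.8 to 106 CPM in Rif1-KO, against 40.7 to 51.8 CPM in control, and Neurog2 had no count. Zic1, at 0.54, 0.36 and 1.0 CPM in the control libraries, passed the filter on low counts only through the Rif1-KO libraries. Fibroblast markers summed to 12.4 to 13.6 CPM in Rif1-KO, against 13.3 to 21.8 CPM in control, with 1 of 3 tested higher (Twist1) and 1 lower (Thy1). Mesoderm markers summed to 13.03 to 13.8 CPM in Rif1-KO, against 11.2 to 12.03 CPM in control, with 1 of 2 tested higher (Kdr). Most of the mesoderm sum came from Eomes, with means of 9.626 CPM in Rif1-KO and 8.575 CPM in control. Eomes also stands on the trophectoderm list and did not pass (adjusted p = 0.266).

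Across the 6 libraries, the genes whose log2 CPM followed Plk2 most closely were 9830144P21Rik (Pearson r = 0.9997), Jub (r = 0.9995) and Tmem30a (r = 0.9993), among 9820 genes with a mean of at least 10 CPM. These values describe 6 libraries in 2 groups that share their scaling, and the gene at rank 100 still had r = 0.995. Jub, for example, was at 151 ± 2.93 CPM in Rif1-KO and 57.9 ± 3.70 CPM in control (SD, n = 3 each).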

How the data were processed

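Per the labels' protocols, total RNA (200 ng) went into an mRNA library kit. The deposited files hold the authors' raw read counts by gene symbol, 1 file for each library, without normalization. The submitters' processing notes name STAR, featureCounts 1.6.2 and the mouse build mm9. The annotation, the strand setting and the treatment of multiply mapped reads are not known here.

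The counts of all 6 libraries were fitted in edgeR 4.0.16 (R 4.3.3) with TMM scaling, the filterByExpr filter and a quasi-likelihood test on group alone. The step was also run on simulated data with far fewer changed genes than were called here, so that run does not check it at this scale. The errors given beside log2 fold changes are standard errors, and the intervals are 95% intervals from the fit of the 6 libraries. Alternatives used DESeq2 1.42.0, limma-voom (limma 3.58.1), other scalings and filters, a replicate block, an offset for GC content and length, and each library left out. Within groups, every pair of libraries differed beyond sampling noise (chi-square per degree of freedom 1.29 to 4.55).

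The genes and lists were chosen with earlier results of these data known. Named genes are the 10 genes, Rif1, up to 3 called genes of each list, taken by lowest adjusted p (the 2 most expressed in a list with no call), and the 3 genes most like the gene with the lowest adjusted p. Listed symbols without a match are not analysed here, apart from Tfcp2l1, which was read under its older symbol Tcfcp2l1. Shared 50-base stretches, exon lengths, overlaps and GC content (for 13904 of 14250 tested genes) came from GENCODE M21 on GRCm38. Its exon lengths entered the levels per kilobase, and its GC content and transcript lengths entered the offset. These were joined to the counts by gene symbol, and no genomic position was matched to them.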

Additional observations from a re-analysis of the deposited data

How the results depend on the processing

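Among the 14 alternatives, Trp53, Mdm2, Btg2, Plk2, Perp, Sesn2 and Trp53inp1 kept their direction and call under all 14; Cdkn1a lost its call under 3, each of which left out a library. The 10 genes gave 6 higher and 2 lower calls in every alternative except those 3, with 5 higher. Over all genes, higher calls ran from 3029 to 4000 and lower calls from 2879 to 3859. With the replicate number as a block, 3779 genes were higher and 3607 lower, and the 10 genes again gave 6 higher and 2 lower calls; deviations of same-numbered libraries had correlations of 0.0793, −0.0646 and 0.0461, and Rif1-KO replicate 2 correlated best with control replicate 1 (0.0999), so the numbers were not taken to pair the libraries. The sign of uncalled genes changed. Sesn1 had a log2 fold change of −0.001 with DESeq2 size factors and with no filter on low counts, −0.002 with at least 1 CPM in 3 libraries and −0.008 under the GC content and length offset, and from −0.118 to 0.073 with a library left out. Ccng1 had −0.03 under that offset. The causes were not tested. Perp had the lowest count of the 10 genes in a library, 91.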
